A study of Mus musculus with 16 samples.

Results

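The 10 genes described here encode the MHC class II antigen presentation machinery of the mouse: the class II chains H2-Aa, H2-Ab1 and H2-Eb1, the invariant chain Cd74, the peptide exchange factor chains H2-DMa, H2-DMb1 and H2-DMb2, its modulator chains H2-Oa and H2-Ob, and the transactivator Ciita. They were chosen by name, with earlier results of these data known. Each is represented by its transcript of highest total count, which gives 10 genes among 24562 entries in the count table. RNA was sequenced from peritoneal B1b cells, sorted on surface markers that included B220lo, IgMhi and CD5lo, and from whole aortas. All mice were ApoE-/-, the atherosclerosis-prone background lacking apolipoprotein E. Libraries labelled wt came from wild-type mice for CD40 (3 of B1b cells, 5 of aorta), and libraries labelled cre from mice lacking CD40 in B cells (3 of B1b cells, 5 of aorta). The labels name neither the promoter that drives Cre nor the age or diet of the mice, and do not tie each library to its own animal. The p-values therefore describe the spread among these libraries, which may be technical.

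Class II molecules display peptides from endocytosed proteins to CD4 T cells. The alpha and beta chains assemble around the invariant chain, which carries them to endosomes, where proteases degrade it to a fragment that stays in the peptide groove. H2-DM exchanges this fragment for other peptides, and H2-O binds H2-DM and restrains it. In B cells, dendritic cells and activated macrophages the genes are switched on together by CIITA, a coactivator that binds no DNA itself but docks on the factors RFX, CREB and NF-Y, which sit on the X, X2 and Y boxes of the promoters. CD40 is a receptor on B cells through which T cell help raises antigen presentation.

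Of the 10 genes, 8 lie in the H2 complex on chromosome 17 of GRCm38 (mm10), between 34092379, the start of H2-Oa, and 34316674, the end of H2-Eb1. Ciita lies on chromosome 16 (10480014 to 10531064).

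The X, X2 and Y boxes could be read in part of these genes. Promoter sequence was taken for the 7 members found in the RefSeq promoter table (GRCm38.p6). Its windows run from 250 bases before to 50 bases after a listed transcript start. For H2-DMb2 and H2-DMa the listed starts lie inside the gene, whose annotated start is 34143229 and 34119693. No window at those 2 annotated gene starts was read. The promoters of H2-Ab1, Cd74 and Ciita were not used here. Of the 7 genes read, 6 had a window with an X-type sequence followed by a Y box on the strand of the gene. Bases 125 to 26 before the start used are shown for these 6, since the transactivator acts on such sites. They lie at chr17:34287849-34287948 (H2-Aa, minus strand), chr17:34305742-34305841 (H2-Eb1), chr17:34153066-34153165 (H2-DMb1), chr17:34145124-34145223 (H2-DMb2), chr17:34092254-34092353 (H2-Oa) and chr17:34238780-34238879 (H2-Ob), all but the first on the plus strand. Capitals mark the Y box TGATTGG, the X core GCAAC, the longer X sequence AACNGATG, which can overlap the core by its first letters AAC, and the CREB palindrome TGACGTCA.
H2-Aa: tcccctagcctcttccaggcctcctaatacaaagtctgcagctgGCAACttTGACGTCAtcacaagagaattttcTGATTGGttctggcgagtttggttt
H2-Eb1: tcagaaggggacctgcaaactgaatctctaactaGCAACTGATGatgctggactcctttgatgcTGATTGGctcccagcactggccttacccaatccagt
H2-DMb1: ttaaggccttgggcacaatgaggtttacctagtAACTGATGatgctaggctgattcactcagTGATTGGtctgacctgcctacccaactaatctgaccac
H2-DMb2: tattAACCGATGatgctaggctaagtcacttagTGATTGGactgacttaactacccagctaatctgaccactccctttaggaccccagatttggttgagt
H2-Oa: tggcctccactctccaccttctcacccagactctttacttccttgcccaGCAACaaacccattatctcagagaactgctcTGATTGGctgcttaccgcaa
H2-Ob: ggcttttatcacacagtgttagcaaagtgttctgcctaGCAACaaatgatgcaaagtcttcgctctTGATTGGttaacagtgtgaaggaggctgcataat

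The 6 windows shown were selected for a Y box after an X sequence on the strand of the gene. The distance from the AAC of the X sequence to the first base of TGATTGG was 29 bases in H2-Aa, H2-DMb1, H2-DMb2 and H2-Oa, 28 in H2-Eb1 and 26 in H2-Ob. The pair shifted as a unit: TGATTGG began 92 bases before the transcript start used for H2-DMb2 (position -92) but at -45 in H2-Oa. Only the H2-Aa window among these held the palindrome TGACGTCA, 5 bases after the AAC. Neither of the 2 H2-DMa windows held the pair, but both lie inside the gene, so the promoter at its annotated start was not examined. Among all 32851 promoter windows, TGATTGG was found on either strand in 7.82%, GCAAC in 35.2%, AACNGATG in 2.32% and TGACGTCA in 1.79%. An X sequence followed 10 to 50 bases later by ATTGG on the strand of the gene was found in 0.861%. The letters and spacing were chosen after these promoters had been read, and a match describes the letters only.

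After keeping 1 transcript per gene, the B1b libraries held 6815829 to 9911226 counts and the aortas 1645926 to 7300894, with aortas wt 5 and cre 2 below 2000000. Cd40, counted over its whole transcript, did not separate the genotypes: it stood at 39.4, 34.0 and 36.8 CPM (read counts scaled to the normalised depth of the library) in the B1b libraries labelled wt and at 30.0, 30.2 and 38.2 in those labelled cre, and at 4.76 to 12.0 CPM in wt and 1.85 to 8.51 CPM in cre aortas (edgeR adjusted p = 0.679 and 0.711). The deleted part of the gene is not given in the sources used here, so this count checks the labels only in part. The sorted cells matched their label, with 8 B cell markers summing to 8048 to 9174 CPM against 130 to 292 in aortas, and 5 smooth muscle markers at 11.6 to 17.2 CPM against 8167 to 21960.

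Class II genes were expressed at very different levels. On a scale of CPM per kilobase of transcript, normalised over all 16 libraries so that genes and tissues can be compared, Cd74 was the most abundant in wt B1b cells at 7602 ± 433 (SD, n = 3). It was followed by H2-Aa at 2493 ± 51.1, H2-Ab1 at 1516 ± 59.9 and H2-Eb1 at 1385 ± 34.3, and the ranges of these 4 genes did not overlap. The modulator chain H2-Ob came next at 287 ± 4.35, then H2-DMb2 at 187 ± 7.51 and H2-DMa at 149 ± 6.59, again without overlap between neighbours. H2-DMb1 at 70.1 ± 5.99, H2-Oa at 64.3 ± 7.24 and Ciita at 62.5 ± 8.53 had overlapping ranges, so their order was not resolved. Together the 10 genes took 1.68% to 2.07% of all counts in B1b cells.

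In aortas the order was different in its lower part. Cd74 at 1383 ± 513 CPM per kilobase (SD, n = 5, wt), H2-Aa at 718 ± 252, H2-Ab1 at 478 ± 186 and H2-Eb1 at 378 ± 148 led as in B1b cells, but with ranges that overlapped from each gene to the next. H2-DMb1 at 33.3 ± 10.8 and H2-DMa at 26.3 ± 9.40 followed and overlapped, then Ciita at 6.47 ± 1.11. H2-Ob at 3.08 ± 0.973, H2-Oa at 2.12 ± 1.44 and H2-DMb2 at 1.57 ± 0.499 were the lowest and overlapped each other. The genes ranked in the same order in the cre aortas. All 10 together took 0.212% to 0.623% of the counts of an aorta.

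**Figure D1:**
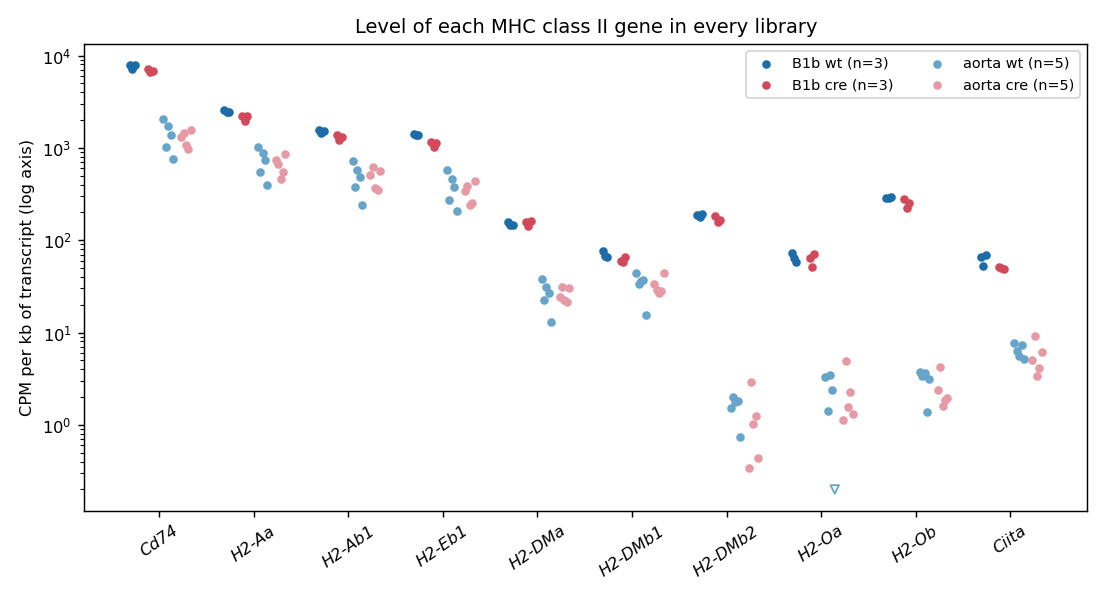
Level of the 10 class II genes in each library, in CPM per kilobase of transcript on a log axis, with 1 point per library and 1 colour per group. The 6 B1b libraries stand above the 10 aortas for every gene, with the smallest gap for H2-DMb1; the open triangle marks the wt aorta with 0 counts of H2-Oa, drawn at an arbitrary height.

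The first comparison asked whether class II transcripts of B1b cells differ when B cells lack CD40. H2-Eb1, the beta chain of the I-E type, was lower in the B1b libraries labelled cre and was the 1 member of 10 past the threshold (Benjamini-Hochberg adjusted p below 0.05 over 11732 genes). Of all genes tested, 0.707% passed it, 0.222% as lower. On the CPM scale normalised within B1b cells, H2-Eb1 stood at 2455, 2286 and 2272 in wt libraries and at 1877, 1779 and 1880 in cre libraries. Every cre library lay below every wt library, and the log2 fold change was -0.34 (SE 0.07, 95% interval -0.49 to -0.19, adjusted p = 0.0287, edgeR quasi-likelihood). The call did not hold in 4 of the 6 fits that left out 1 library: the adjusted p was 0.126 and 0.0675 on leaving out wt replicates 1 and 2, and 0.0688 and 0.124 on leaving out cre replicates 1 and 2, with log2 fold changes of -0.35 to -0.30 in all 6.

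H2-Aa, the I-A alpha chain, measured 2972, 2786 and 2772 CPM in wt and 2485, 2315 and 2480 CPM in cre B1b cells. H2-Ab1, the I-A beta chain, measured 1970, 1771 and 1834 CPM in wt and 1642, 1544 and 1553 CPM in cre. In both genes all cre libraries lay below all wt libraries, with log2 fold changes of -0.23 (SE 0.07) each that missed the threshold (adjusted p = 0.152 and 0.144). DESeq2, with 0.899% of 19348 genes past the threshold, also passed H2-Aa (adjusted p = 0.0273) and H2-Ab1 (0.0306) beside H2-Eb1 (2.51e-05). The ratio of H2-Eb1 to H2-Aa per kilobase, which does not depend on how libraries are scaled, was 0.558, 0.555 and 0.554 in wt and 0.511, 0.519 and 0.512 in cre B1b cells. Its ranges did not overlap, while the fitted intervals of the 2 genes did (H2-Eb1 -0.49 to -0.19, H2-Aa -0.38 to -0.08). With 3 libraries against 3 the smallest exact permutation p is 0.1. That ratio was chosen after the values were seen, and in aortas it overlapped between genotypes (0.491 to 0.559 in wt, 0.466 to 0.566 in cre).

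The invariant chain Cd74 measured 11420, 10060 and 11030 CPM in wt and 9852, 9671 and 9446 CPM in cre B1b cells. The cre values were the lower ones without overlap on this scale, though not on the scale over all 16 libraries (wt 7102 to 7858, cre 6594 to 7110 CPM per kilobase), with a log2 fold change of -0.17 (SE 0.08, adjusted p = 0.347). Ciita, the transactivator, measured 297, 231 and 298 CPM in wt and 220, 229 and 211 CPM in cre. The wt library at 231 lay just above the highest cre library, and the log2 fold change was -0.33 (SE 0.09, 95% interval -0.52 to -0.13, adjusted p = 0.117). Without that wt library, replicate 2, Ciita passed the threshold (log2 fold change -0.43, adjusted p = 0.0349) where 0.54% of genes did. It also passed without a filter on low counts (0.0258), where 1.69% of genes did.

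None of the peptide editing chains passed the threshold, and their log2 fold changes lay between -0.21 and 0.03. H2-Ob measured 791, 759 and 776 CPM in wt and 730, 614 and 666 CPM in cre B1b cells (log2 fold change -0.21, SE 0.08, adjusted p = 0.223). H2-DMb1 measured 112, 95.3 and 92.0 CPM in wt and 82.5, 84.0 and 90.8 in cre (log2 fold change -0.21, SE 0.1, adjusted p = 0.35), and H2-DMb2 measured 279, 255 and 273 CPM in wt and 255, 236 and 234 in cre (-0.15, SE 0.08, adjusted p = 0.397). For these 3 genes the cre values were all lower than the wt values, by less than 1 CPM between the nearest libraries of H2-DMb2, which overlapped when scaled over all 16 libraries. H2-DMa, the alpha chain that pairs with both DM beta chains, overlapped at 267, 241 and 239 CPM in wt and 256, 243 and 263 in cre (0.03, 95% interval -0.13 to 0.19), as did H2-Oa at 80.8, 69.5 and 62.3 CPM in wt and 68.6, 57.3 and 76.7 in cre (-0.06, 95% interval -0.31 to 0.18).

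**Figure D2:**
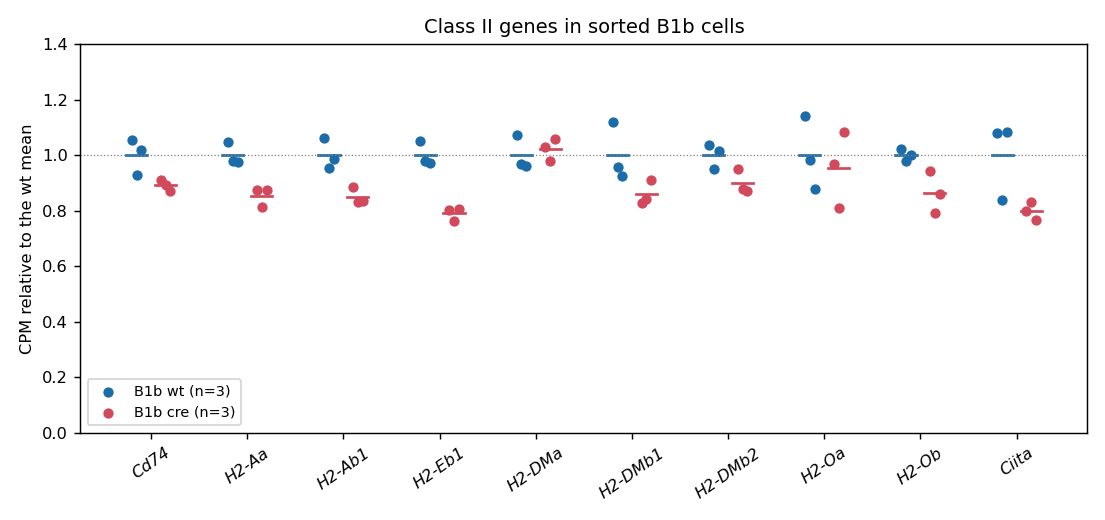
CPM of each class II gene in the 6 B1b libraries, divided by the mean of the 3 wt libraries, with 1 point per library and a bar at each group's mean. On this within-tissue scale the 3 cre points of 8 genes lie below the 3 wt points, and for H2-DMa and H2-Oa they overlap.

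Counted over the 10 genes, 9 log2 fold changes were below 0, against 50.9% of all genes tested. For 8 genes the cre libraries all lay below the wt libraries, which held for 8.66% of all genes tested, and 7 had an unadjusted p under 0.05, all as lower, against 5.69% of all genes. On CPM scaled over all 16 libraries, a choice added after seeing the data, Cd74 and H2-DMb2 overlapped and 6 of the 10 remained without overlap, against 7.48% of all genes. The median log2 fold change of the 10 was -0.21, with a median of 0.00 over all genes. These genes share a regulator and a set of libraries, and the counts are not independent of one another. The genes were also chosen with earlier results of these data known, so the shares over all genes describe and do not test them. In the same libraries the summed level of 10 macrophage and monocyte markers was 115 to 221 CPM in wt and 276 to 317 CPM in cre, without overlap (1 of 9 tested markers, Csf1r, passed the threshold as higher). The sum of 8 dendritic cell markers overlapped at 34.9 to 54.2 and 38.4 to 52.3 CPM. The part of these cells in the class II values was not tested.

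The second comparison asked the same of whole aortas. None of the 9 tested class II genes passed the threshold in aortas labelled cre, and none had an unadjusted p under 0.05 (edgeR; 0.015% of 13364 genes passed, and 12.6% had an unadjusted p under 0.05). DESeq2 and limma-voom also called 0 of them. H2-Aa measured 445 to 1162 CPM with a median of 832 in wt and 510 to 946 with a median of 794 in cre (log2 fold change -0.14, 95% interval -0.66 to 0.39). Cd74 measured 1067 to 2877 CPM with a median of 1943 in wt and 1357 to 2145 with a median of 1850 in cre (-0.12, 95% interval -0.64 to 0.40). The genotypes overlapped in each of the 9 genes, whereas 2.92% of all genes tested did not overlap, and for both the interval left room for a difference of the size measured in B1b cells. In these bulk libraries fewer cells of a type and less RNA per cell cannot be told apart.

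H2-Ab1 at 290 to 879 CPM in wt and 422 to 778 in cre (log2 fold change 0.01, 95% interval -0.56 to 0.58) and H2-Eb1 at 342 to 961 and 402 to 715 CPM (-0.19, -0.75 to 0.38) spread as widely. H2-DMa was at 21.7 to 63.4 CPM in wt and 35.4 to 54.3 in cre, and H2-DMb1 at 21.7 to 62.6 and 37.0 to 60.6. Ciita was measured at 34.1, 27.7, 24.7, 31.9 and 22.7 CPM in wt and at 22.4, 41.3, 14.5, 17.7 and 26.3 CPM in cre aortas (-0.25, 95% interval -0.78 to 0.27), so the cre aortas held both the highest and the 3 lowest values. H2-Ob reached only 16 to 62 counts per library (3.69 to 10.1 CPM in wt, 4.27 to 11.7 in cre, log2 fold change -0.41, adjusted p = 0.654), and H2-Oa 0 to 24. A count of 0 in wt aorta 5, the second shallowest library, allows up to 1.52 CPM of H2-Oa, counting error only. H2-DMb2, at 2 to 18 counts, did not pass the filter on low counts.

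Without the aortas below 2000000 counts (wt 5 and cre 2), H2-DMb2 passed the filter and all 10 log2 fold changes were below 0 (51.9% of all genes), from -1.20 (H2-DMb2) to -0.20 (H2-DMb1), with 0 genes of the 10 past the threshold where 0.671% of all genes passed it. The smallest adjusted p was 0.231, for Ciita at -0.55. The difference of the cre effect between B1b cells and aortas, tested over all 16 libraries, passed for 0 of the 10 genes, with 0.0199% of 15091 genes past the threshold and 11.1% at an unadjusted p under 0.05 (0 of the 10). DESeq2 and limma-voom called 0 as well. The differences, B1b minus aorta, ran from -0.25 for H2-Ab1 (95% interval -1.02 to 0.53) to 0.63 for H2-DMb2 (-0.22 to 1.49). The data therefore did not resolve whether the 2 tissues differ in this respect.

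The abundant class II genes and H2-DMa varied alike from aorta to aorta, and H2-Oa, H2-Ob and H2-DMb2 did not follow them. The mean of H2-Aa, H2-Ab1, H2-Eb1 and Cd74, as log2(CPM + 1) centred per gene, was lowest in wt aorta 5 (-0.79) and highest in wt aorta 1 (0.69), with the cre aortas between -0.41 and 0.30. Single genes were compared with this mean by the root mean square distance over the 10 aortas. Cd74 (0.054), H2-Eb1 (0.055), H2-Aa (0.084), H2-Ab1 (0.096) and H2-DMa (0.134) lay close to it, although the first 4 of these make up the mean. H2-DMb1 (0.222), Ciita (0.368), H2-Oa (0.503), H2-Ob (0.55) and H2-DMb2 (0.62) followed it less closely. The last 3 rest on few counts and lay about as far from the mean as the median gene (0.52). Wt aorta 5 also had the lowest sums of macrophage markers (2445 CPM) and dendritic cell markers (92.6 CPM), but wt aorta 1, highest in class II, was not the highest in either (3989 and 165 CPM). The sum of 6 T cell markers was lowest in wt aorta 5 (21.7 CPM) and highest in wt aorta 1 (69.4 CPM, the next being 44.3 in cre aorta 4), the same ends as the class II mean. Between these ends the orders differed. The class II mean was -0.38 in cre aorta 4 and 0.12 in wt aorta 4, where the T cell sum was 25.7 CPM. The highest sum of B cell markers was in cre aorta 2 (292 CPM). The part of any cell type in the order was not tested.

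**Figure D3:**
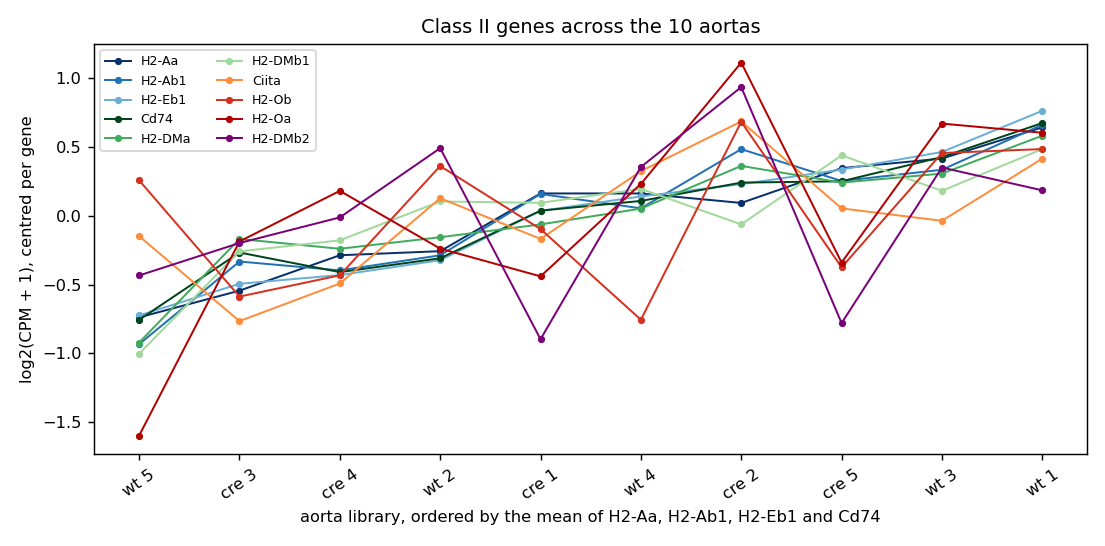
log2(CPM + 1) of each class II gene in the 10 aortas, centred per gene, with libraries ordered by the mean of H2-Aa, H2-Ab1, H2-Eb1 and Cd74 and 1 line per gene. The 4 abundant genes, H2-DMa and H2-DMb1 are lowest in wt 5 and highest in wt 1, whereas H2-Oa, H2-Ob and H2-DMb2 peak in cre 2 and scatter. Ciita also peaks in cre 2 and is lowest in cre 3.

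Other genes were ranked where their mean level over the 10 aortas was at least 5 CPM. Those near the class II mean included Irf8, a transcription factor of myeloid cells and B cells (distance 0.122), and Cd52, a leukocyte surface glycoprotein (0.143). Pld4 (0.154), Ppfia4 (0.163) and Slc25a45 (0.18) were also near, with a median distance of 0.52 over 11855 genes. In the 6 B1b libraries the genes near the mean included Lrch4 (0.025), Dhx30 (0.029), Abl1 (0.031), Rassf2 (0.033) and B3gat3 (0.036), with a median of 0.193 over 9363 genes.

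All 10 genes were higher in wt B1b cells than in wt aortas, with log2 fold changes from 1.08 to 6.81 and no overlap between the tissues. Of 14339 genes tested, 35.4% passed the threshold as higher in B1b cells and 33.9% were higher without overlap. H2-DMb2 differed most (log2 fold change 6.81, SE 0.17, adjusted p = 2.04e-11), with 1984 to 2506 counts in B1b libraries against 2 to 18 in aortas, and ranked 51 of 14339 by log2 fold change. H2-Ob (6.59, SE 0.25) ranked 57 and H2-Oa (4.77, SE 0.32) ranked 179. Ciita came next at 3.29 (SE 0.15), then H2-DMa at 2.5 (0.23) and Cd74 at 2.49 (0.27). The classical chains differed less, with H2-Eb1 at 1.90 (0.27), H2-Aa at 1.82 (0.25) and H2-Ab1 at 1.69 (0.27), and H2-DMb1 least at 1.08 (SE 0.22, adjusted p = 0.000816).

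**Figure D4:**
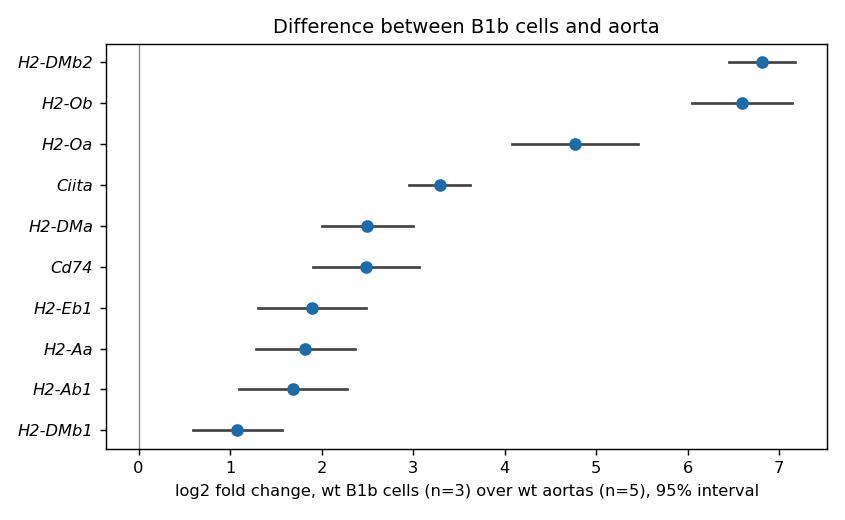
log2 fold change of each class II gene between 3 wt B1b libraries and 5 wt aortas, with 95% intervals from edgeR, ordered by size. H2-DMb2, H2-Ob and H2-Oa lie above 4, Ciita at 3.29, and the other 6 genes between 1.08 and 2.5.

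The median over the 10 genes was 2.49, against -0.09 over all genes. Whereas Ciita was 9.77-fold higher in B1b cells (95% interval 7.76 to 12.3), H2-Aa was 3.54-fold higher (2.43 to 5.16) and H2-DMb2 112-fold higher (87.2 to 144). All differences kept their direction and stayed past the threshold in each fit that left out 1 library and with other normalisations and tools. An aorta contains many cells without class II, and a level per tissue is not a level per presenting cell.

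The ratios between members also differed between tissues. H2-O is a pair of H2-Oa and H2-Ob, and H2-DM a pair of H2-DMa with either beta chain. The summed level of H2-Oa and H2-Ob was 0.759 to 0.888 of that of the 3 DM genes per kilobase in B1b cells and 0.0433 to 0.144 in aortas. The ratio of Cd74 to H2-Aa per kilobase was 2.89 to 3.34 in B1b cells and 1.78 to 2.35 in aortas. Cd74 was divided by 1410 bases, the length of its longer form, in every library. Its shorter form has 1224 bases, so this ratio also depends on the mix of forms, described below. Neither ratio overlapped between tissues.

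H2-DMb2 made up 71.4%, 72.8% and 74.8% of the summed H2-DMb1 and H2-DMb2 counts in wt B1b cells and 75.6%, 73.8% and 72.0% in cre B1b cells. In aortas it made up 3.33%, 5.73%, 4.79%, 4.76% and 4.65% in wt and 1.03%, 9.21%, 3.70%, 4.29% and 1.01% in cre. The tissues did not overlap, and the genotypes did within each tissue. This share was not planned and was chosen after the values were seen. Its tests between tissues therefore describe a separation already in view. The means differed by 69.1 percentage points over 6 B1b libraries and 10 aortas (two-sided exact permutation test, p = 0.00025, the smallest that 8008 arrangements can give, 0.000999 after adjustment over 8 tests of this and the Cd74 share below). Within wt libraries alone, 3 against 5, the exact p was 0.0357, also the smallest possible (0.0714 adjusted), and the genotypes gave exact p = 0.6 in B1b cells and 0.643 in aortas. With so few H2-DMb2 counts an aortic share is loose, as in cre aorta 2, at 9.21% with an exact binomial 95% interval of 3.78% to 18.1%. The transcripts are 93.9% identical where they align, and 27.2% of the 50-base windows of H2-DMb1 also occur in H2-DMb2. Of the windows of H2-DMb2, 31.3% also occur in other genes (165 of them, H2-DMb1 included). Reads in those stretches may have been split between genes or left out, which bears on the 2 to 18 aortic counts of H2-DMb2.

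Cd74 lies on chromosome 18 (60803849 to 60812652). It is made in a short form and in a longer form, p41, with an extra exon that encodes a thyroglobulin-type domain, known to bind cathepsin L. The table counts both forms against their own rows. The counts present only in the longer row were taken as those of its exon 7 of 9, of 192 bases, at chr18:60811294-60811485. How reads were counted is not given, so their place in this exon was not tested. These counts were 1.66%, 1.73% and 1.62% of Cd74 counts in wt B1b cells and 1.85%, 1.65% and 1.70% in cre. In aortas they were 4.84%, 4.94%, 4.34%, 5.01% and 5.80% in wt and 4.33%, 4.98%, 4.53%, 4.82% and 5.57% in cre. Every aorta lay above every B1b library, and genotypes overlapped within each tissue.

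Pooled over libraries, 8584 of 504522 Cd74 counts (1.70%, exact binomial 95% interval 1.67% to 1.74%) were present only in the longer row in B1b cells. In aortas these were 4405 of 90644 (4.86%, 4.72% to 5.00%). The exon is 13.6% of the length of the longer transcript, so these percentages are shares of counts, not of molecules. The means differed by -3.21 percentage points, B1b minus aorta (two-sided exact permutation test, p = 0.00025, 0.000999 adjusted), and wt libraries alone gave exact p = 0.0357 (0.0714 adjusted). Genotypes gave exact p = 0.6 in B1b cells and 0.651 in aortas. This measure was chosen after the values were seen.

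**Figure D5:**
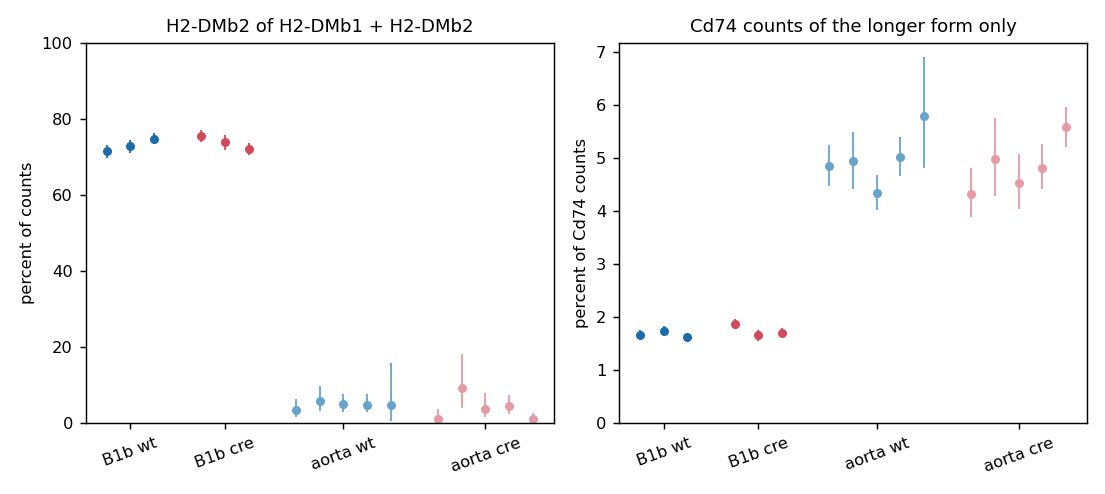
Share of H2-DMb2 in the summed H2-DMb1 and H2-DMb2 counts (left) and share of Cd74 counts that belong to the longer form only (right), in percent, with 1 point per library in the order of the replicates and exact binomial 95% intervals. B1b libraries lie at 71.4% to 75.6% against 1.01% to 9.21% in aortas on the left, and at 1.62% to 1.85% against 4.33% to 5.80% on the right.

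Other genes of the pathway, 36 in 5 lists, were examined in the same fits. The lists too were chosen with earlier results of these data known. In B1b cells 2 of the 33 tested passed the threshold, both lower in cre, against 0.707% of all genes tested (0.222% as lower). Lgmn, the endosomal asparaginyl protease that cuts the invariant chain, measured 69.0, 60.1 and 68.1 CPM in wt and 51.7, 45.9 and 39.6 CPM in cre (log2 fold change -0.53, SE 0.11, adjusted p = 0.0357), without overlap. It was the 1 of 8 protease and reductase genes to pass, while Ctss, the cathepsin that makes the last cut of the invariant chain in B cells, was at 646 to 690 CPM in wt and 728 to 779 in cre (0.19, adjusted p = 0.244). Il4ra, the receptor chain through which interleukin 4 raises class II in B cells, measured 309, 241 and 261 CPM in wt and 191, 160 and 164 in cre (-0.66, SE 0.1, adjusted p = 0.00261). It was the 1 of 14 tested genes to pass in the list of signals and factors upstream of Ciita.

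None of the 7 genes for the RFX, CREB and NF-Y factors passed in B1b cells (0.707% of all genes did), and 1 had an unadjusted p under 0.05 (13.3% of all genes). Those with the smallest p there were Creb1 (156 to 180 CPM in wt, 181 to 204 in cre, log2 fold change 0.19, adjusted p = 0.341) and Rfxap (0.21, adjusted p = 0.67). In the other lists none passed either: the ubiquitin ligase Marchf1, which removes class II from the surface, was at 461 to 514 CPM in wt and 469 to 594 in cre (0.18, adjusted p = 0.38), Mif, a ligand of the invariant chain, at 0.30 (adjusted p = 0.719), and H2-Eb2, the only tested gene of the list of further class II genes, at -0.26 (adjusted p = 0.608). H2-Ea was not analysed here. In aortas 0 of the 31 tested list genes passed, against 0.015% of all genes, and 2 had an unadjusted p under 0.05, against 12.6% of all genes. The smallest p there belonged to the intramembrane protease Sppl2a, at 104 to 142 CPM in wt and 80.8 to 112 in cre (-0.36, adjusted p = 0.312), and to the kinase Jak2 (-0.44, adjusted p = 0.32).

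Between wt B1b cells and wt aortas 20 of 33 list genes were higher and 8 lower in B1b cells, against 35.4% and 40.4% of all genes tested. Of 7 enhanceosome genes 5 were higher in B1b cells and 0 lower, led by Rfx5 (log2 fold change 2.12), and of 14 factors and signals 11 were higher and 2 lower, with Pax5 at 6.51 and Irf4 at 5.31. Of 8 protease and reductase genes 5 were lower in B1b cells and 2 higher. Ctsl, cathepsin L, measured 3.34 to 6.21 CPM in wt B1b cells and 872 to 1690 CPM in wt aortas (-7.85, SE 0.34), Ctsd differed by -4.59 and Ctsb by -3.75, whereas the thiol reductase Ifi30 was higher (1.46). The 2 ligases were opposite, with Marchf1 higher in B1b cells (4.18) and Marchf8 lower (-5.23). The median log2 fold changes of these lists were 0.73, 1.24 and -1.93, against -0.09 over all genes.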

How the data were processed

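RNA sequencing of 16 mouse libraries was analysed: 6 of sorted peritoneal B1b cells and 10 of aorta. Library preparation used the KAPA mRNA Hyperprep kit, per the labels' protocols. The submitters' processing notes list CASAVA 1.8.2, STAR 2.5.2b and mm10. How reads were counted, with which annotation and with what use of strand, is not given in the sources used here. For each RefSeq transcript the authors deposited raw counts of reads, without normalization. Of 35745 rows, 35440 were named from RefSeq and 188 from GENCODE; 117 had no name and held 0.24% to 2.5% of counts. The row of highest total was kept per gene. edgeR 4.0.16 (R 4.3.3; TMM, filterByExpr, robust quasi-likelihood test) was fitted per comparison on all genes, with Benjamini-Hochberg adjustment at 0.05, after a check on simulated data. The alternatives used DESeq2 1.42.0, limma 3.58.1 (voom), other size factors, no filter, other rows and fewer libraries. All 10 members, the list genes past the threshold (otherwise the smallest p of a list) and the 6 genes nearest in profile are named, apart from a few genes not reported here. The members and lists were chosen with earlier results of these data known. Per-kilobase values use GENCODE vM21 exon lengths. Promoters are from RefSeq. Intervals of shares cover counting error only.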

Additional observations from a re-analysis of the deposited data

Results flagged for a closer look

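Of 32 checks of a single aorta against the other 4 of its group (10 genes and 6 shares or ratios in 2 genotypes), 3 found a library far from the rest; chance alone gives about 1 in 20. In cre aorta 2, the shallowest library, H2-Oa stood at 5.55 CPM against 1.23 to 2.43 CPM in the other cre aortas, and H2-Ob at 11.7 CPM against 4.27 to 6.40 CPM. The sum of B cell markers was also highest in that library, at 292 CPM, and its values rest on 9 counts of H2-Oa and 19 of H2-Ob. In wt aorta 4, H2-Ob stood at 3.69 CPM against 8.46 to 10.1 CPM in the other wt aortas, and the sum of B cell markers was the lowest of the 10 aortas, at 130 CPM. The part of B cells in these values was not tested.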

How the results depend on the processing

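The count of class II genes past the threshold in B1b cells was 1, but 3 with DESeq2, 2 without the filter on low counts and 0 to 1 when 1 library was left out. It was 0 in aortas, 10 between tissues and 0 for the difference of the cre effect under every alternative run. H2-Oa in B1b cells changed sign with 1 library left out (range -0.16 to 0.04). In aortas the same fits ranged over 0 for H2-Aa (-0.29 to 0.03), H2-Ab1 (-0.16 to 0.20), H2-Eb1 (-0.34 to 0.01), H2-DMa (-0.19 to 0.13), H2-DMb1 (-0.22 to 0.06), H2-Oa (-0.55 to 0.07) and Cd74 (-0.28 to 0.06), and the difference of the cre effect did for H2-Aa (-0.26 to 0.05), H2-DMa (-0.09 to 0.22), Cd74 (-0.23 to 0.10) and Ciita (-0.18 to 0.15). H2-Ab1 in aortas was -0.01 without the filter and -0.29 without the 2 libraries below 2000000 counts; H2-Oa was 0.05 with limma-voom. For the difference of the cre effect, leaving out these 2 libraries gave 0.12 (H2-Aa), 0.09 (H2-Ab1), 0.11 (H2-Eb1), 0.02 (H2-DMb1), 0.21 (Cd74) and 0.26 (Ciita), and limma-voom gave -0.00 (H2-Oa) and 0.11 (Ciita). None of these values passed the threshold, and the cause was not tested. Over all genes, calls in B1b cells rose from 83 to 174 with DESeq2 and 327 without the filter (35 to 103 with 1 library left out), in aortas from 2 to 237 with DESeq2 and 92 without the 2 shallow libraries, but 1 with limma-voom or the other transcript row (0 to 14), and for the difference from 3 to 170 with DESeq2 and 17 without the shallow libraries (1 to 7). The H2-DMb2 and Cd74 shares, alternatives chosen after seeing the data, kept their direction and permutation p under the threshold in all 16 fits that left out 1 library. The tissues did not overlap in either share, so this outcome was fixed in advance and adds no support. No paired analysis was possible because replicates were numbered by sample order alone and the labels tie no library of one group to one of another. Few counts limit H2-DMb2, H2-Oa and H2-Ob in aortas.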
